A study of Mus musculus with 6 samples.

Results

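The genes described here are 6 metabotropic glutamate receptor genes (Grm2, Grm3, Grm4, Grm5, Grm7 and Grm8) and the 3 Homer scaffold genes (Homer1, Homer2 and Homer3), found by their symbols in the deposited tables. All 9 were among the 24346 gene symbols of each table, and all 9 reached 1 FPKM in at least 3 libraries, as did 13122 genes in all. FPKM, a normalised abundance, scales a count by transcript length and sequencing depth. A further 2 rows with a receptor symbol of the same family are not analysed here, so group I is represented by Grm5 alone.

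The study compared the hippocampus of TonEBP+/- mice (HET, 3 libraries), which carry 1 disrupted allele of Nfat5, with that of TonEBP+/+ littermates (WT, 3 libraries). Nfat5 encodes TonEBP, the tonicity-responsive enhancer binding protein. All 6 libraries came from C57BL/6 animals of 12 months, untreated as far as the labels say, and each number from 1 to 3 names 1 library. The parents were TonEBP+/- mice, and the line had been back-crossed to C57BL/6J for 5 to 6 generations. The labels give neither the part of Nfat5 that was disrupted nor a cell type limit, and they do not say whether a library is 1 animal, so p-values measure only the spread between these libraries.

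Metabotropic glutamate receptors are G protein-coupled receptors that sense glutamate on a slower scale than ion channels do. Group I receptors such as Grm5 couple through Gq to phospholipase C and lie mostly on the postsynaptic side, whereas group II (Grm2, Grm3) and group III (Grm4, Grm7, Grm8) couple through Gi/o, lower cyclic AMP and dampen transmitter release. Homer proteins bind group I receptors with an N-terminal EVH1 domain and join them through a C-terminal coiled coil to Shank proteins and to calcium channels of internal stores. A short Homer1 form without the coiled coil, Homer1a, is made after neuronal activity and loosens these contacts.

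Values were deposited on a log2 scale and are given here as FPKM, a reading taken from the values themselves. Fragment numbers were not part of the tables. From the spacing of low values, depth was estimated at 7740000 fragments in HET 1, the lowest, and 12540000 in HET 3, the highest, and 64.3% to 70.2% of the low values lay within 0.15 of a whole step. At that depth Grm8, the lowest of the 9 genes, rested on 26.7 to 58.0 fragments per kb of transcript, and Grm5, the highest, on 381 to 701. Nfat5 was at 8.25, 9.31 and 8.42 FPKM in HET 1 to HET 3, against 10.5, 8.39 and 9.72 FPKM in WT 1 to WT 3, and these ranges overlapped. A disrupted allele may still yield RNA, so this value does not check the labels. All 10 neuron markers were above the filter. Their summed level was 2194 to 2382 FPKM in HET libraries and 2180 to 2508 FPKM in WT libraries. They include Rbfox3, Snap25 and Syt1, which are not limited to hippocampal or forebrain neurons. HET 2 and HET 3 stood apart in 14 thalamus and habenula markers, whose median deviation from the WT mean was -0.58 and -0.73 on the log2 scale, against 0.07 in HET 1. The list was chosen with earlier results of these data known. Of its genes, Adarb1, Plekhg1, Prkcd, Shox2 and Slc17a6 passed in limma without HET 1, all lower in HET. Its low values are thus partly built in for HET 2 and HET 3. Receptor and Homer differences that move with these libraries are given below with that list as a covariate or without the libraries. The covariate was 0.38 to 0.54 in WT libraries, 0.72 in HET 1, -0.93 in HET 2 and -1.20 in HET 3. WT libraries lie near HET 1 on it, so a fit with it is close to comparing HET 1 with WT libraries. These checks are therefore not separate, and whether tissue content sets a difference was not tested. Other lists also varied. The 10 GABAergic interneuron markers summed to 216, 270 and 246 FPKM in HET 1 to HET 3, against 274, 286 and 286 FPKM in WT 1 to WT 3, lower in every HET library, although the median deviation of the list was -0.30, 0.14 and -0.19 in HET 1 to HET 3, against -0.14 to 0.06 in WT libraries. CA3 and CA2 markers summed to 314, 235 and 263.5 FPKM in HET 1 to HET 3, against 308.5 to 387 FPKM in WT libraries. Choroid plexus markers ran from 99.0 FPKM (HET 2) to 3480 FPKM (HET 3), and from 285 to 2910 FPKM among WT libraries. The part of these lists in the differences below was not tested.

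The upstream windows of the 3 Homer genes are shown first, since Homer1 alone of them is known as an activity-induced gene. The windows run from 250 bases before to 50 bases after the RefSeq start of each gene (GRCm38.p6), and such windows were found for 7 of the 9 genes. Capitals mark TGACG, the core of the cyclic AMP response element, searched on both strands (as CGTCA on the other strand). The Homer1 window is chr13:93303507-93303806 on the plus strand, that of Homer2 is chr7:81706876-81707175 on the minus strand, and that of Homer3 is chr8:70282749-70283048 on the plus strand.
Homer1: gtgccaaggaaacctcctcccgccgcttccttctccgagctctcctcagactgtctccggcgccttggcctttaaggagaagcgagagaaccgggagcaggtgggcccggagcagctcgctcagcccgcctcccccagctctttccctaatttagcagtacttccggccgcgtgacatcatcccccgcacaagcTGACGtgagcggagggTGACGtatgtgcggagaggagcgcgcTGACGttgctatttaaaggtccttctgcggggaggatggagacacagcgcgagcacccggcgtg
Homer2: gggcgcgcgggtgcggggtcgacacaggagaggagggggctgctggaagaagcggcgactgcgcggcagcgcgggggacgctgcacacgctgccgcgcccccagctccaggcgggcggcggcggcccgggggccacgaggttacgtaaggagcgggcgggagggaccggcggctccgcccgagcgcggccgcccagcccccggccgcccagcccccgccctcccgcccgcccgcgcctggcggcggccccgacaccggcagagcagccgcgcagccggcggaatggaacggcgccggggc
Homer3: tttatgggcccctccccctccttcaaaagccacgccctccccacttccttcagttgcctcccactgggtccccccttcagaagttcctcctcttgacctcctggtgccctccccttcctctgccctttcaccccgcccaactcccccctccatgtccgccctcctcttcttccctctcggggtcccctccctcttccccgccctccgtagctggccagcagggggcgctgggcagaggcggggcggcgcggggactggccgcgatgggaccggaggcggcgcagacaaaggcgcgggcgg
The Homer1 window held 3 matches, beginning at positions -56, -40 and -14 from the start, where +1 is the first transcribed base. The other 6 windows held 0 matches. At least 1 match was present in 20.9% of all 27025 promoter windows of this length, and at least 3 were present in 1.07%. TGGAAA, the first bases of the tonicity-responsive element bound by TonEBP, was also searched on both strands. Grm2, Grm3, Grm7, Grm8 and the 3 Homer windows held 0 matches of it, and 21.5% of all windows held at least 1. A match of letters is a description of the window and not a binding site. Whether matches relate to the level of any gene was not tested.

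By level, the 9 genes fell into a high, a middle and a low set. Grm5 averaged 55.7 FPKM over the 6 libraries (49.3 to 60.8 FPKM), Grm3 averaged 49.1 FPKM (45.0 to 54.2 FPKM) and Homer1 averaged 44.2 FPKM (38.5 to 57.8 FPKM). These neighbours overlapped in range, although Grm5 exceeded Grm3 in 6 of 6 libraries and Grm3 exceeded Homer1 in 5 of 6, HET 3 being the exception. Homer1 stood 2.54 times above Homer2, the next gene, with no overlap of their ranges. FPKM depends on the transcript length used, which the sources used here do not give. Coding transcripts span 772 to 5713 spliced bases for Homer1 and 1634 to 10982 for Homer2. The order of genes by level therefore depends on those lengths. Homer2 (15.7 to 19.6 FPKM) and Grm7 (13.0 to 17.4 FPKM) overlapped. Grm7 in turn lay above Homer3 (8.03 to 11.2 FPKM) in all 6 libraries without overlap. Grm2 (5.11 to 9.29 FPKM), Grm4 (4.45 to 7.24 FPKM) and Grm8 (3.10 to 5.24 FPKM) closed the order with overlapping ranges, and their order differed between libraries. In HET 2, Grm2 exceeded Homer3 (8.03 FPKM), which lay above Grm2 in the other 5 libraries. Among the 13122 genes tested, 90.1% had a lower mean than Grm5, 87.2% a lower mean than Homer1 and 23.9% a lower mean than Grm8.

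**Figure D1:**
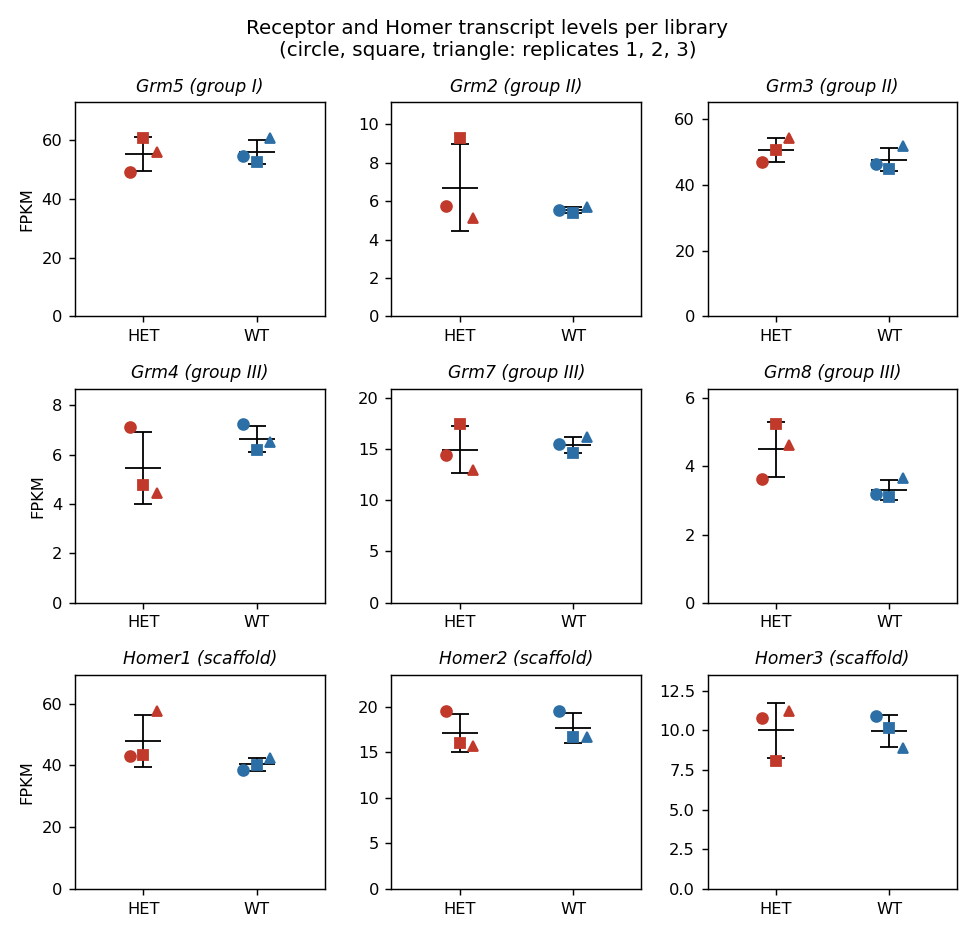
FPKM of each gene in the 3 HET and the 3 WT libraries, with the mean and SD as a black bar and whiskers; each panel has its own vertical axis starting at 0. Homer1 is the panel in which the 3 HET libraries (43.1 to 57.8 FPKM) all lie above the 3 WT libraries (38.5 to 42.5 FPKM), and Grm2 shows 1 high library, HET 2 at 9.29 FPKM.

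Between the genotypes, 0 of the 9 genes passed an adjusted p of 0.05 in limma, as was the case for 0 of all 13122 genes tested (0%). An unadjusted p under 0.05 was reached by 1 of the 9, Grm8, against 3.69% of all genes tested. The genotypes did not overlap in 1 of the 9, Homer1, against 8.52% of all genes tested. Over all genes, 8 passed without HET 1 and 1 each without WT 1, WT 2 or HET 3, none of them among the 9. The 9 genes had a median log2 difference of -0.00, with 4 positive and 5 negative, beside 6561 positive and 6561 negative among all genes tested. In bulk RNA, fewer cells of a type and less RNA per cell cannot be told apart, and this holds for each difference below.

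**Figure D2:**
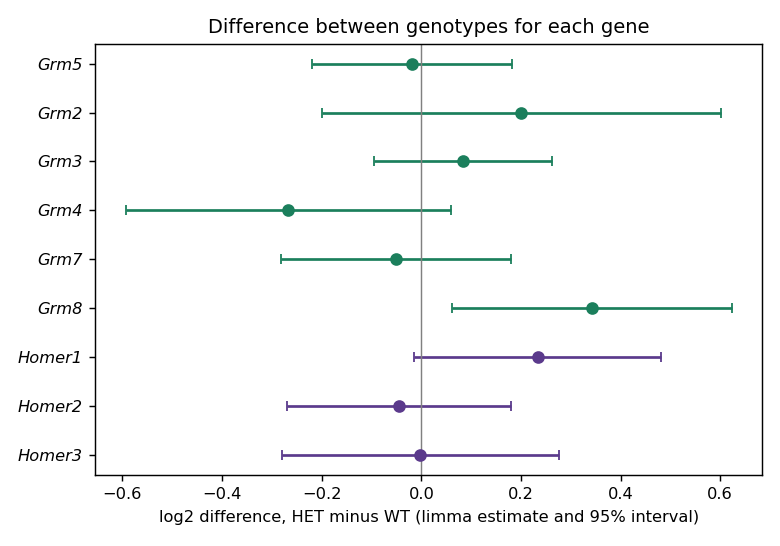
Log2 difference between HET and WT libraries for each gene, as the limma estimate (point) with its 95% interval (line), receptors in green and Homer genes in purple. The interval of Grm8 (0.06 to 0.62) is the one that does not include 0, and its adjusted p over all genes was 1.00.

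Grm5 (chromosome 7, 87584168 to 88134907, plus strand, GRCm38) encodes the group I receptor mGluR5, which drives calcium release from internal stores and long-term depression. It was at 49.3, 60.8 and 55.9 FPKM in HET 1 to HET 3, against 54.5, 52.8 and 60.7 FPKM in WT 1 to WT 3. The HET libraries spread on both sides of the WT libraries, with HET 1 the lowest of the 6 and HET 2 the highest. The log2 difference was -0.02 (95% interval -0.22 to 0.18, SE 0.0897, limma adjusted p = 1.00), with p = 1.0 in the exact permutation test (two-sided, as are all such tests below).

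Of the group II receptors, Grm3 (chromosome 5, 9485541 to 9725170, minus strand), which astrocytes as well as neurons express, made up most of the transcript. Grm3 was at 46.9, 50.5 and 54.2 FPKM in HET 1 to HET 3, against 46.3, 45.0 and 51.7 FPKM in WT 1 to WT 3. The ranges overlapped, and HET 3 was the highest library. The log2 difference was 0.08 (95% interval -0.10 to 0.26, SE 0.0802, limma adjusted p = 1.00). It was -0.01 with the thalamus markers as a covariate. The 10 astrocyte markers had a summed level of 1329 to 1524 FPKM in HET libraries and 1306 to 1369 FPKM in WT libraries. Their median deviation from the WT mean was highest in HET 1 (0.13) and lowest in HET 3 (-0.08), the library with the most Grm3. Their part in the level of Grm3 was not tested.

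Grm2 (chromosome 9, 106643095 to 106656082, minus strand) encodes an autoreceptor found at the edges of glutamatergic terminals, mossy fibre terminals of the dentate gyrus among them. Grm2 was at 5.73, 9.29 and 5.11 FPKM in HET 1 to HET 3, against 5.52, 5.39 and 5.69 FPKM in WT 1 to WT 3. HET 2 stood far above the other 5 libraries, which lay between 5.11 and 5.73 FPKM. The coefficient of variation was 33.6% in HET libraries and 2.65% in WT libraries. The log2 difference of 0.20 (SE 0.176, 95% interval -0.20 to 0.60, limma adjusted p = 1.00) was -0.03 without HET 2. In HET 2 the median deviation from the WT mean was -0.21 for the 9 tested dentate granule cell markers, -0.31 for the oligodendrocyte markers, -0.23 for CA3 and CA2 markers, 0.24 for CA1 markers and 0.69 for the meningeal fibroblast markers. It was -1.75 for the choroid plexus markers, a list that also varied widely among WT libraries. The summed level of the 8 meningeal markers was 74.9 FPKM in HET 2 and 38.5 and 50.7 FPKM in HET 1 and HET 3, against 42.1 to 44.4 FPKM in WT libraries, and none was at 0. Dcn is on both the CA1 and the meningeal list, which are therefore not separate. The part of these lists in the value of Grm2 was not tested.

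The group III receptors had differences of both signs. Grm7 (chromosome 6, 110645581 to 111567230, plus strand), the low-affinity receptor of the presynaptic active zone, was the most abundant of them. Grm7 was at 14.4, 17.4 and 13.0 FPKM in HET 1 to HET 3, against 15.5, 14.6 and 16.2 FPKM in WT 1 to WT 3. HET libraries held both the highest and the lowest value, and the log2 difference was -0.05 (SE 0.103, 95% interval -0.28 to 0.18, limma adjusted p = 1.00).

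Grm8 (chromosome 6, 27275119 to 28135178, minus strand), a presynaptic autoreceptor with high affinity for glutamate, was the receptor with the smallest p. Grm8 was at 3.64, 5.24 and 4.62 FPKM in HET 1 to HET 3, against 3.19, 3.10 and 3.65 FPKM in WT 1 to WT 3. HET 2 and HET 3 lay above all WT libraries, and HET 1 fell just under WT 3, so that the ranges overlapped by a narrow margin. The mean was 4.50 ± 0.808 FPKM in HET and 3.31 ± 0.296 FPKM in WT libraries (SD, n = 3 each), a ratio of 1.36. The log2 difference of 0.34 (SE 0.126, 95% interval 0.06 to 0.62) had an unadjusted p of 0.0222 and an adjusted p of 1.00 in limma. Its exact permutation p was 0.2. With the thalamus markers as a covariate the log2 difference was 0.16, and with HET 1 as the only HET library it was 0.11. The 8 CA1 pyramidal cell markers, none at 0, had a median deviation from the WT mean of -0.01, 0.24 and 0.16 in HET 1 to HET 3, against -0.01, -0.04 and 0.08 in WT 1 to WT 3. They were highest in HET 2 and HET 3, as Grm8 was. These markers include Dcn, which is also on the meningeal list. Their summed level was 159, 202 and 179 FPKM in HET 1 to HET 3, against 173, 154 and 175 FPKM in WT 1 to WT 3, and their part in the value of Grm8 was not tested. The scale of log2(FPKM + 1) understates differences at such low levels, and the log2 difference was 0.42 with a pseudocount of 0.1.

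Grm4 (chromosome 17, 27422387 to 27521403, minus strand), a presynaptic receptor known for its expression in thalamus and in cerebellar granule cells, was at 7.12, 4.78 and 4.45 FPKM in HET 1 to HET 3, against 7.24, 6.20 and 6.52 FPKM in WT 1 to WT 3. HET 2 and HET 3 were the lowest of the 6 libraries, and HET 1 lay within the WT range. The mean was 5.45 ± 1.46 FPKM in HET and 6.65 ± 0.532 FPKM in WT libraries (SD, n = 3 each). The log2 difference was -0.27 (SE 0.146, 95% interval -0.59 to 0.06, limma adjusted p = 1.00). Its exact permutation p was 0.3. The low libraries of Grm4 were the 2 that were low in thalamus and habenula markers. That list of 15 genes had 14 above the filter and 0 at 0, and its summed level was 312, 183 and 175 FPKM in HET 1 to HET 3, against 291, 312 and 294 FPKM in WT 1 to WT 3. With the mean of these markers as a covariate, the log2 difference of Grm4 was 0.01. With HET 1 as the only HET library it was 0.09. Without HET 1 it was -0.45 (adjusted p = 0.439), and without HET 3 it was -0.16. Cerebellar markers, of which 5 of 10 were above the filter and Fat2 was under 0.1 FPKM in every library, summed to 74.6, 61.8 and 62.4 FPKM in HET 1 to HET 3, against 72.3 to 78.5 FPKM in WT libraries.

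**Figure D3:**
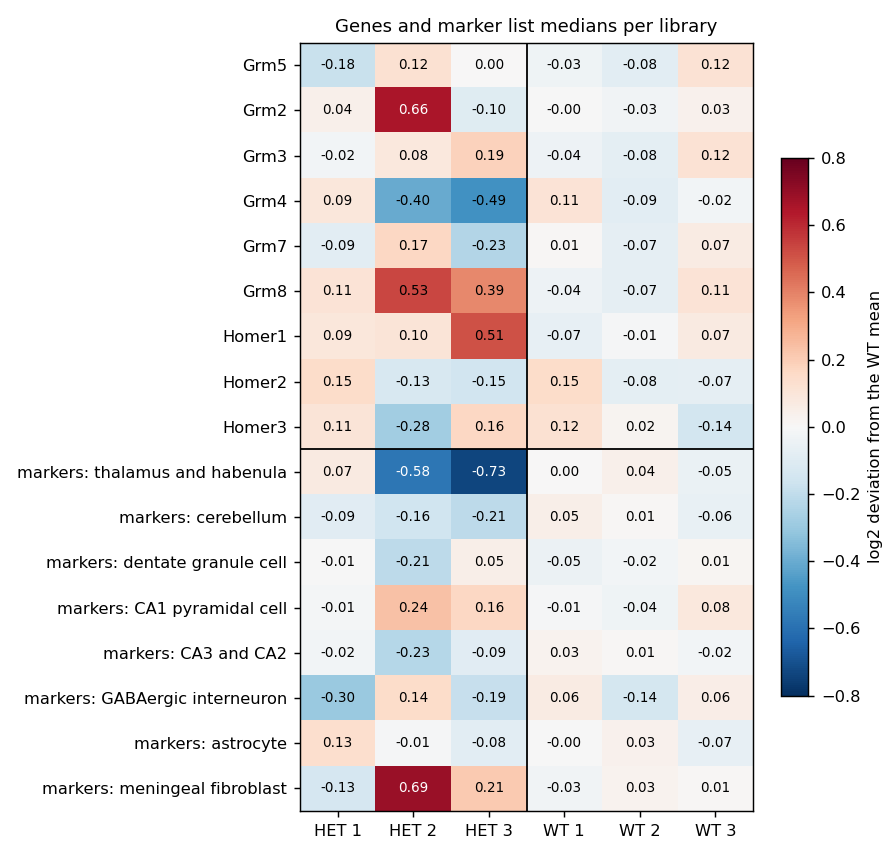
Log2 deviation of each gene (upper block) and of the median of each marker list (lower block) from the WT mean, by library, with red above and blue below. Grm4 (-0.40 in HET 2 and -0.49 in HET 3) is low in the same libraries as the thalamus and habenula markers (-0.58 and -0.73). HET 2 holds the highest values of Grm2 (0.66), Grm8 (0.53), CA1 markers (0.24) and meningeal markers (0.69). HET 2 is also highest in Grm5 (0.12), Grm7 (0.17) and GABAergic interneuron markers (0.14). It is lowest in Homer3 (-0.28), dentate granule cell markers (-0.21) and CA3 and CA2 markers (-0.23).

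Homer1 (chromosome 13, 93299635 to 93405129, plus strand) had higher values in every HET library than in any WT library. Homer1 was at 43.1, 43.4 and 57.8 FPKM in HET 1 to HET 3, against 38.5, 40.2 and 42.5 FPKM in WT 1 to WT 3. HET 1 and HET 2 lay within 1 FPKM above WT 3, while HET 3 stood apart from the other 5 libraries. The mean was 48.1 ± 8.42 FPKM in HET and 40.4 ± 2.03 FPKM in WT libraries (SD, n = 3 each), a ratio of 1.19. The log2 difference of 0.23 (SE 0.110, 95% interval -0.01 to 0.48) had an unadjusted p of 0.0618 and an adjusted p of 1.00 in limma. Its exact permutation p was 0.1, the smallest value possible with 3 libraries on each side. Without HET 3 the log2 difference was 0.10, and with the thalamus markers as a covariate it was 0.09.

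The sources used here do not say which transcripts were counted, so whether the Homer1 value counted short and long transcripts alike cannot be told. GENCODE M21 lists 11 complete coding transcripts of Homer1, of which 8 encode short proteins of 180 to 233 residues and 3 encode long ones of 354 to 370 residues. A transcript of 5 exons and 5713 spliced bases that encodes 186 residues has the short layout of Homer1a. Which of the 2 kinds differed between the libraries was not tested, since each table has 1 value per gene.

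Homer2 (chromosome 7, 81600481 to 81707527, minus strand), a scaffold with the same EVH1 and coiled-coil layout, was at 19.6, 16.0 and 15.7 FPKM in HET 1 to HET 3, against 19.6, 16.7 and 16.7 FPKM in WT 1 to WT 3. Library 1 of each genotype was high and the ranges overlapped. The log2 difference was -0.04 (SE 0.101, 95% interval -0.27 to 0.18, limma adjusted p = 1.00).

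Homer3 (chromosome 8, 70282827 to 70294361, plus strand), the paralog most abundant in cerebellar Purkinje cells, was at 10.8, 8.03 and 11.2 FPKM in HET 1 to HET 3, against 10.9, 10.1 and 8.89 FPKM in WT 1 to WT 3. HET libraries again held the highest and the lowest value. The log2 difference was -0.00 (SE 0.124, 95% interval -0.28 to 0.28, limma adjusted p = 1.00). Exons of Grm8 overlap Mir592 on the same strand, which strand cannot separate. Exons of Homer3 overlap those of Ddx49 on the opposite strand, and those of Homer2, Grm2 and Grm7 overlap unnamed gene models on the opposite strand. The kit keeps the strand, but the sources used here do not say whether strand was used in counting.

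Shares of the summed FPKM were compared within each family. The size of each sum, share and ratio depends on the transcript lengths used, which are not known. Group I, group II and group III took 40.2% ± 1.25, 41.7% ± 1.44 and 18.1% ± 1.92 of the summed FPKM of the 6 receptor genes in HET libraries, and 41.6% ± 0.398, 39.5% ± 0.296 and 18.9% ± 0.674 in WT libraries (SD, n = 3 each). The share of group II was higher in each HET library (40.4% to 43.2%) than in any WT library (39.2% to 39.7%), and that of group I was lower (38.8% to 41.1% in HET, against 41.2% to 42.0% in WT). The sums themselves overlapped between the genotypes. Group I was at 49.3 to 60.8 FPKM in HET and 52.8 to 60.7 FPKM in WT libraries. Group II was at 52.6 to 59.8 FPKM in HET and 50.3 to 57.4 FPKM in WT libraries. Of the 18 sums, shares and ratios computed, most overlapped between the genotypes. Shares of a sum move against each other, and no test was made on them. Within group III, Grm8 took 14.4%, 19.1% and 21.0% in HET 1 to HET 3, against 12.3%, 13.0% and 13.9% in WT 1 to WT 3. All HET libraries were above all WT libraries in this share. Grm4 took 28.3%, 17.4% and 20.2% in HET 1 to HET 3, against 27.9%, 25.9% and 24.8% in WT 1 to WT 3, so HET 1 was not low. Homer1 took 58.7% to 68.2% of the Homer sum in HET libraries and 55.8% to 62.4% in WT libraries. The ratio of Homer1 to Grm5, a scaffold set against its receptor, was 0.874, 0.713 and 1.03 in HET 1 to HET 3, against 0.706, 0.761 and 0.701 in WT 1 to WT 3, and HET 2 lay within the WT range.

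**Figure D4:**
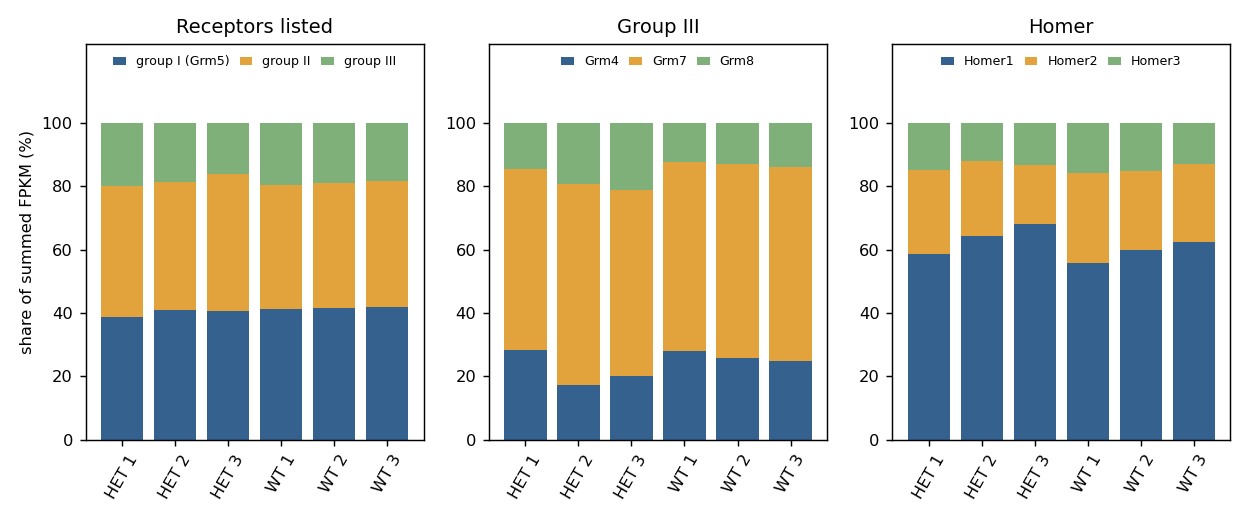
Share of the summed FPKM taken by each receptor group (left), by each group III receptor (middle) and by each Homer gene (right) in every library, HET libraries left of WT libraries. Grm8 takes 14.4% to 21.0% of group III in HET libraries and 12.3% to 13.9% in WT libraries, and group II takes 40.4% to 43.2% of the receptor sum in HET and 39.2% to 39.7% in WT libraries. In summed FPKM, group II overlapped between the genotypes.

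Genes of the signalling pathways were described from lists of known roles. Beside each list stand the shares over all genes tested, 3.69% at an unadjusted p under 0.05 in limma and 8.52% without overlap of the genotypes. In the Gq and phospholipase C list, 0 of 18 genes passed in limma (2 at an unadjusted p under 0.05, both lower) and the median log2 difference was -0.02. Rgs4, which speeds the shut-off of Gq and Gi signals, was at 78.3, 72.4 and 65.5 FPKM in HET 1 to HET 3, against 80.9, 91.4 and 89.0 FPKM in WT 1 to WT 3 (log2 difference -0.27, SE 0.0830, adjusted p = 1.00). Plcb4, a phospholipase C gene that thalamic neurons express, was at 31.9, 19.7 and 21.2 FPKM in HET 1 to HET 3, against 32.6, 37.1 and 34.5 FPKM in WT 1 to WT 3. The genotypes did not overlap in either gene, but HET 1 lay close to the WT libraries in both. The log2 difference of Rgs4 was -0.17 with the thalamus covariate, -0.15 without HET 2 and HET 3, and -0.33 without HET 1. Plcb4 had a log2 difference of -0.53, which was -0.21 with the covariate and -0.11 without HET 2 and HET 3. Without HET 1, Plcb4 was among the 8 genes that passed in limma (-0.74, adjusted p = 0.0425). Mgll, which degrades the endocannabinoid made after group I activation, had a log2 difference of 0.12 (SE 0.0882), which was 0.05 without HET 1, 0.04 without WT 3 and 0.22 with the covariate.

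In the Gi/o and cyclic AMP list, 0 of 24 genes passed in limma (0 at an unadjusted p under 0.05), and the median was -0.01. Its 3 genes with the smallest p were Gnaz, a Gi-family alpha subunit (0.13, SE 0.0804), Adcy8, a calcium-activated adenylyl cyclase (-0.17, SE 0.127), and Gnb1, a beta subunit (-0.09, SE 0.0727). Gnaz was at 22.0 to 23.9 FPKM in HET libraries and at 18.7 to 22.0 FPKM in WT libraries, so its groups barely separated, and its log2 difference was 0.06 without WT 2. That of Adcy8 was -0.05 without HET 3 and -0.28 without HET 2, and that of Gnb1 was -0.04 with the thalamus covariate.

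Among receptor partners and regulators, 0 of 21 tested genes passed in limma, with 1 at an unadjusted p under 0.05 and a median of 0.01. That gene was Grasp, which encodes tamalin, an adaptor that binds group I receptors and helps carry them to the surface. Grasp was at 14.2, 12.5 and 13.5 FPKM in HET 1 to HET 3, against 11.6, 11.4 and 11.3 FPKM in WT 1 to WT 3. All HET libraries lay above all WT libraries, with a log2 difference of 0.21 (SE 0.0758, adjusted p = 1.00) and of 0.26 with the thalamus covariate. Prrt1, a gene for an AMPA receptor partner, had a log2 difference of -0.18 (SE 0.117), and Arrb2, the gene for beta-arrestin 2, had one of 0.17 (SE 0.135). With 1 library left out they ran from -0.31 (without WT 2) to -0.10 (without WT 1) for Prrt1 and from 0.10 (without WT 3) to 0.30 (without WT 1) for Arrb2, which was at 0.30 with the thalamus covariate too.

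Of the Homer-bound postsynaptic proteins, 0 of 18 tested genes passed in limma (0 at an unadjusted p under 0.05), and the median was -0.01. Dnm3, a dynamin gene that ties endocytosis to Homer at spines, was at 24.2, 25.4 and 24.4 FPKM in HET 1 to HET 3, against 28.2, 25.8 and 28.6 FPKM in WT 1 to WT 3. The groups did not overlap, although HET 2 and WT 2 were close, and the log2 difference was -0.15 (SE 0.0698, adjusted p = 1.00). Agap2, which encodes the Homer-binding protein PIKE, had a log2 difference of 0.07 (SE 0.0939), and Shank3, a master scaffold of the postsynaptic density, had one of -0.11 (SE 0.216). For Agap2 the value was 0.01 without HET 1 and 0.18 with the thalamus covariate. For Shank3 it was -0.33 without HET 1, 0.10 without HET 3 and 0.26 with the covariate.

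Activity-induced genes were set beside Homer1 because Homer1a belongs to that class. In limma 0 of 21 passed, 3 had an unadjusted p under 0.05, all lower in HET, and the median was 0.02. These were Btg2 (log2 difference -0.59, SE 0.115, adjusted p = 0.945), Dusp1 (-0.62, SE 0.172, adjusted p = 1.00) and Fos (-0.37, SE 0.125, adjusted p = 1.00), which encode a growth regulator, a phosphatase of MAP kinases and an AP-1 subunit. Their HET libraries lay below all WT libraries, the opposite side from Homer1. The list as a whole had no common direction, with 12 positive and 9 negative differences. Its groups did not overlap in 4 of 21 genes, all lower in HET. That count was 2 of 18 in the Gq list, 2 of 24 in the Gi/o list and 1 of 21 among receptor partners. It was 1 of 18 for Homer-bound proteins and 2 of 13 for glutamate clearance and cycling, against 8.52% of all genes tested. With the thalamus covariate the log2 differences were -0.75 for Btg2, -0.95 for Dusp1 and -0.60 for Fos, and without HET 1 they were -0.51, -0.42 and -0.23. In Fos, HET 1 was the lowest library at 7.80 FPKM, whereas Homer1 peaked in HET 3. Homer1a has no value of its own here, and the part of neuronal activity in these values was not tested.

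In the list for glutamate clearance and cycling, 0 of 13 genes passed in limma (1 at an unadjusted p under 0.05, lower), and the median was -0.01. Slc17a6, the vesicular glutamate transporter gene of thalamic neurons, had a log2 difference of -0.52 (SE 0.193), which was -0.15 with the thalamus covariate and -0.05 without HET 2 and HET 3. Slc17a6 is itself on the thalamus and habenula list, so the covariate contains it and a smaller difference is built in. Without HET 1 the log2 difference of Slc17a6 was -0.76 and passed in limma (adjusted p = 0.0425), as Plcb4 did. The astrocyte glutamate transporter gene Slc1a3 was at 175, 164 and 159 FPKM in HET 1 to HET 3, against 155, 151 and 149 FPKM in WT 1 to WT 3, and the groups did not overlap (log2 difference 0.13, SE 0.0699, adjusted p = 1.00). Without HET 1 it was 0.09, and with the covariate 0.19. Glud1, glutamate dehydrogenase, had a log2 difference of -0.13 (SE 0.0823), which was -0.06 without WT 1 and -0.05 with the covariate.

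The genes most like Grm8 and Homer1 over the 6 libraries were found by the root mean square difference between z-scored log2 values, among 13121 other tested genes. With 6 points, close matches are common, and nothing follows from them about function. For Grm8 the nearest were Mycl (0.105), Pcsk5 (0.153) and Lmnb2 (0.177), which were all highest in HET 2. For Homer1 the nearest were Ncbp1 (0.160), Gabra2 (0.166) and Slc37a4 (0.183), which were all highest in HET 3. Gabra2, a GABA-A receptor subunit gene, was at 48.3, 49.7 and 75.7 FPKM in HET 1 to HET 3, against 44.7, 43.7 and 50.5 FPKM in WT 1 to WT 3.

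**Figure D5:**
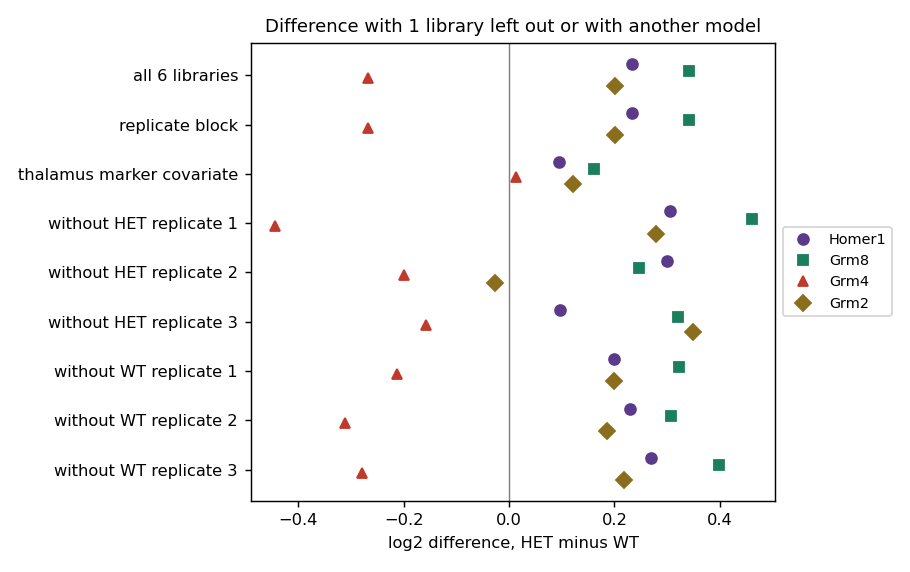
Log2 difference between HET and WT libraries for Homer1, Grm8, Grm4 and Grm2 with all 6 libraries, with a replicate block, with the thalamus marker covariate, and with each library left out. Homer1 is at 0.10 without HET 3, Grm2 crosses 0 without HET 2 (-0.03), and Grm4 reaches 0.01 with the covariate.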

How the data were processed

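Total RNA from hippocampus was prepared with a NEBNext Ultra II kit that keeps the strand, per the labels' protocols. The submitters' processing notes name TopHat and mm10. The annotation, and the program behind the abundances, were not given in the sources used here. The authors deposited 1 table per library with 1 log2 value per gene symbol. No header names the unit, and the values were read as log2(FPKM + 1). A wrong reading would change the FPKM values, the filter and the adjusted p-values.

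The 9 genes were compared in a limma 3.58.1 fit (R 4.3.3) of the 13122 genes that reached 1 FPKM in 3 or more libraries, with genotype as the only term, trend and robust moderation, and Benjamini-Hochberg adjustment over all genes. The fit was also run on simulated data, with results not given here. Exact permutation tests used FPKM. Medians of marker lists are deviations from the WT mean. Members, lists and tests were chosen with earlier results of these data known. From each gene list the 3 members with the smallest p are named. Alternatives were other scalings, filters and moderation, a pseudocount of 0.1, a replicate block, a thalamus covariate, each library left out, and a threshold of 0.1. Leaving out HET 2 and HET 3 together was added after seeing the data. Transcripts are from GENCODE M21 (GRCm38), promoters from RefSeq. Figures were drawn with matplotlib 3.10.9.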

Additional observations from a re-analysis of the deposited data

How the results depend on the processing

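Under all 15 alternatives 0 of the 9 genes passed, also at an adjusted p of 0.1. Over all genes the count of 0 became 0 to 8 with 1 library left out and 1 without HET 2 and HET 3, and none of the genes called was among the 9. Those called were 8 without HET 1, and 1 each without WT 1, WT 2 or HET 3. Of 134 single-gene values under the alternatives, 117 kept their direction. Other filters, the moderation and the replicate block cannot change a single-gene difference, so their values are in that count by construction. Homer1 (0.09 to 0.30) and Grm8 (0.11 to 0.46) kept theirs under every alternative that gave a value, and Grm8 had none with the filter of a mean of 5 FPKM, which it missed. With the thalamus covariate, signs turned for Grm3 (-0.011), Grm4 (0.012), Homer2 (0.11) and Homer3 (0.064), and without HET 2 and HET 3 for Grm3 (-0.020), Grm4 (0.088), Homer2 (0.15) and Homer3 (0.11). These alternatives are not separate, since the covariate fit is close to comparing HET 1 with WT libraries. With 1 library left out the log2 difference ran from -0.027 to 0.35 for Grm2, 0.032 to 0.14 for Grm3, -0.45 to -0.16 for Grm4, -0.089 to 0.061 for Grm5, -0.16 to 0.040 for Grm7, -0.14 to 0.028 for Homer2 and -0.085 to 0.13 for Homer3. The cause was not tested. Differences of 18 summed levels, shares and ratios were recomputed under both scalings and with each library left out. All 144 values moved by less than the larger of the HET and WT SDs. Leaving out 1 of 3 libraries cannot exceed that limit whatever the values, so it says nothing about stability there. Of the 144, 23 moved by more than the WT SD. Signs turned in 9 values, as in the receptor sum (2.93, and -2.33 without HET 2), group I (-0.644, and 2.39 without HET 1) and the share of Grm2 in group II (1.26, and -0.676 percentage points without HET 2). The Homer sum difference of 7.19 FPKM was 2.41 without HET 3. Deviations of same-numbered libraries had correlations of -0.208, -0.247 and -0.157 for numbers 1 to 3, against 0.0493 to 0.169 for unlike numbers. Deviations from a mean of 3 libraries sum to 0, which ties these correlations to each other. Whether the numbers mark a pairing therefore cannot be told from them. The replicate block called 0 genes. It left the difference of Homer1 at 0.23, as a balanced block must. Depth limits Grm8 most, with a counting error of up to 19.4% for 1 kb of transcript.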
